A study of Homo sapiens with 2 samples.

Results

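The cell cycle engine was examined in 46 genes, of 17397 listed in the deposited tables, in WT and MEIS2-/- cells at day 4 of hematopoietic differentiation. The 46 genes are a fixed list of cyclins, cyclin-dependent kinases (CDKs), CDK inhibitors, E2F and RB family genes, the MCM helicase with its loading factors, and regulators of mitosis, and each was found by its NCBI Gene number. They were divided into 24 genes of G1, including the CDK inhibitors, 10 genes of S phase and 12 genes of M phase. Both libraries came from H1, a widely used human embryonic stem cell line. One was made from WT H1 cells, and the other from MEIS2-/- H1 cells, in which the homeobox gene MEIS2 had been deleted with CRISPR/CAS9 and clones had been expanded from single cells. The medium of both held activin A (50 ng/ml) with BMP4 (40 ng/ml) during the first 2 days, and VEGF (40 ng/ml) with bFGF (50 ng/ml) during the next 2 days. More than 1 homozygous clone was made in the study and the labels do not name the one sequenced, so the deletion and the properties of a clone cannot be told apart. The cultures were not sorted, and in such bulk samples fewer cells of a type and less RNA per cell cannot be told apart.

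Expression was given in FPKM, a level that counts fragments relative to transcript length and to all mapped fragments of the library. Differences are log2 fold changes of MEIS2-/- over WT after 0.1 FPKM was added to each value, which understates the differences of genes with low values. Each genotype had 1 library, so the differences have no replicate check and the genotypes could not be tested against each other. Genes were compared where either library reached 1 FPKM, which left 13075. Over the 8092 genes that reached 5 FPKM in each library, the median log2 fold change was 0.11, and differences are given beside this shift where it matters. MEIS2 itself was at 10.85 FPKM in WT and 3.44 FPKM in MEIS2-/- cells, with a log2 fold change of -1.63. All 12 listed endothelium genes were lower in MEIS2-/- cells, although EMCN was below 1 FPKM in both libraries. Their summed level was 617 FPKM in WT and 155 FPKM in MEIS2-/- cells, with KDR, the VEGF receptor of these cells, at 323.77 FPKM and 61.98 FPKM. The summed level of 9 endoderm genes was 669 FPKM and 1298 FPKM, and most of this difference was APOA1, at 401.38 FPKM and 879.13 FPKM. Of the 9, 5 were at least 2-fold higher (55.6%, against 7.84% of all genes compared) and 4 within 2-fold. TTR and AFP, among the 5, were compared only through the MEIS2-/- library, as WT cells had 0.38 FPKM and 0.32 FPKM. A log2 fold change below 0 was seen in 2 of the 9, with GATA6 at 72.52 FPKM and 55.42 FPKM. The 14 genes of undifferentiated cells in the tables summed to 856 FPKM and 2108 FPKM, with CUZD1 listed at 0 in WT cells. Most of this difference was POU5F1, at 285.65 FPKM and 1454.14 FPKM, and the other 13 genes summed to 571 FPKM and 654 FPKM. Of the 12 compared, 4 were at least 2-fold higher, 2 at least 2-fold lower and 6 within 2-fold. The first 2 shares, 33.3% and 16.7%, stand beside 7.84% and 7.97% of all genes compared. The 2 lower genes, GDF3 and USP44, reached 1 FPKM only in WT cells. The list thus went both ways, with NANOG at 17.13 FPKM and 70.78 FPKM, GDF3 at 5.42 FPKM and 0.87 FPKM and DNMT3B at 76.91 FPKM and 45.35 FPKM. SOX2 was near 0 in both, at 0.09 FPKM and 0.15 FPKM. The levels of many of these markers differed between the libraries, and their part in the results below was not tested.

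Progress through the cell cycle is driven by CDKs, which are active only when bound to a cyclin. In G1, D-type cyclins with CDK4 or CDK6, and then E-type cyclins with CDK2, phosphorylate the RB family and release E2F factors, which switch on the genes of DNA replication. INK4 inhibitors block CDK4 and CDK6, and Cip/Kip inhibitors bind a wider range of cyclin-CDK complexes. Replication origins are licensed when CDC6 and CDT1 load the MCM2 to MCM7 helicase, and cyclin B with CDK1 then drives mitosis, together with the Polo and Aurora kinases. Embryonic stem cells are known for a short G1 phase, which lengthens as they differentiate.

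The promoters of the phase groups held different short strings. Promoter sequences from RefSeq (build GRCh38.p14, from 250 bases before to 50 bases after the annotated start) were matched for 36 of the 46 genes. CCND1, CCND2, CCNE2, CDK2, CDKN1C, E2F5, MCM4, MCM5, AURKA and WEE1 were not matched. Both strands were searched for an E2F site, spelled TTTCCCGC, TTTCGCGC, TTTGGCGC or TTTGCCGC, for the cell cycle homology region (CHR), spelled TTTGAA, and for the CCAAT box of NF-Y, spelled CCAAT. An E2F string was found in 7 of 8 S promoters, in 5 of 18 G1 promoters and in 1 of 10 M promoters, against 4.75% of the 13893 matched promoters of genes in the tables. The CHR string was found in 5 of 10 M promoters, 2 of 18 G1 promoters and 0 of 8 S promoters, against 10.8%. The CCAAT box was found in 6 of 8 S promoters and 8 of 10 M promoters, against 36.2%, and in 5 of 18 G1 promoters. Of the 4 G1 genes with at least 2-fold lower levels in MEIS2-/- cells, as given below, CDKN1A, CCND3 and CDKN2A held none of the strings in this window, and CDKN2D held 1 CCAAT box.

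The 250 bases before the start are shown for 3 MCM genes, as examples of the S group, with E2F strings and CCAAT boxes of either strand in capitals.
MCM3, chr6:52284743-52284992, minus strand: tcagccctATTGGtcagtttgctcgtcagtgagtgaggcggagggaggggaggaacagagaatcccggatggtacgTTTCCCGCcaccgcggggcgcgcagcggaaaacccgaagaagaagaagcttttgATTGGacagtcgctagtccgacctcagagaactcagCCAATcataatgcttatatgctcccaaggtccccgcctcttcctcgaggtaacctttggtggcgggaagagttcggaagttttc
MCM6, chr2:135876444-135876693, minus strand: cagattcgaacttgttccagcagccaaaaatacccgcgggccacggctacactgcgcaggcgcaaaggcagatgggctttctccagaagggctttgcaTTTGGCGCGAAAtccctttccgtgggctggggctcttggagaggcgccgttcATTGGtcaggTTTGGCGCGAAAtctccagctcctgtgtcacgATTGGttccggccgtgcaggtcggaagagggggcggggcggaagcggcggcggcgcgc
MCM7, chr7:100101398-100101647, minus strand: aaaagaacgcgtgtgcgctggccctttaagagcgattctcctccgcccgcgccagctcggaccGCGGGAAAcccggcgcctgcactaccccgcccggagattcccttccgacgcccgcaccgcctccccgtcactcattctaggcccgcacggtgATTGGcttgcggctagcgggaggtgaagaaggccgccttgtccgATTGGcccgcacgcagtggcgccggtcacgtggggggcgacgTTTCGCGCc
In MCM6 each run of 12 capitals holds an E2F string on either strand and the pair overlaps, from 152 to 141 and from 90 to 79 bases before the start. In MCM7 the last E2F string ends 2 bases before the start.

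The same stretch of 3 M genes is shown for contrast, with the CHR string and CCAAT boxes of either strand in capitals.
CCNB2, chr15:59104896-59105145, plus strand: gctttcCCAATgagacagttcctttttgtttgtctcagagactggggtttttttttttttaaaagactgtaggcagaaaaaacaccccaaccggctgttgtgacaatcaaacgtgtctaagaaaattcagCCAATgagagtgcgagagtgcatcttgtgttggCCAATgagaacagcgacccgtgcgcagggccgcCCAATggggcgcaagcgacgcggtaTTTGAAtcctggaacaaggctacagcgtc
CDC20, chr1:43358731-43358980, plus strand: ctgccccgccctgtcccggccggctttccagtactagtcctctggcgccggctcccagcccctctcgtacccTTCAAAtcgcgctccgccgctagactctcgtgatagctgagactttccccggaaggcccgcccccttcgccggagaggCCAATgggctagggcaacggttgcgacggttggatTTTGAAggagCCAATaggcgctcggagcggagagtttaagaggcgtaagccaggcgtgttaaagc
MKI67, chr10:128126424-128126673, minus strand: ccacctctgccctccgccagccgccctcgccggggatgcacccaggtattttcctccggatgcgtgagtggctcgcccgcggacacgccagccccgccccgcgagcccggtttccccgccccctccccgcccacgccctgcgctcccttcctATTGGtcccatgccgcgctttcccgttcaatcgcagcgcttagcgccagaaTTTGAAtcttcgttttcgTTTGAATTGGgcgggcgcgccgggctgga
In CCNB2 and MKI67 a CHR string lies from 29 to 24 bases before the start, and in MKI67 it overlaps a CCAAT box of the opposite strand. A match describes these letters only and is not evidence of binding.

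**Figure D1:**
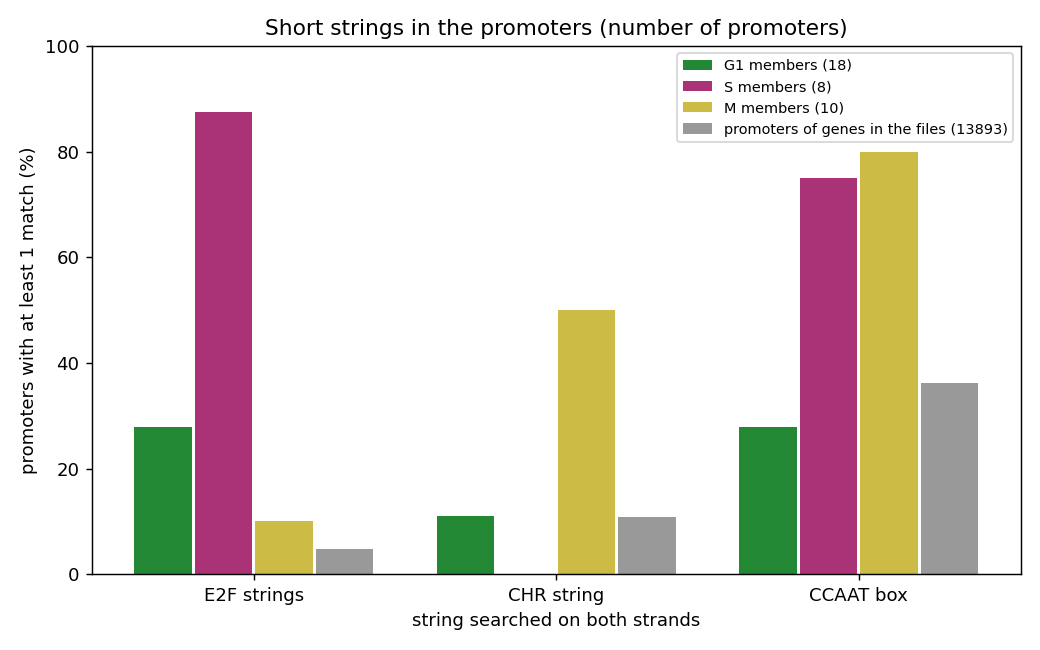
Percentage of promoters with at least 1 match to the E2F strings, the CHR string or the CCAAT box (vertical axis), for the G1, S and M genes and for all matched promoters of genes in the tables. The E2F bar is highest for the S genes (7 of 8 promoters) and the CHR bar for the M genes (5 of 10).

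Of the 46 genes, 43 reached 1 FPKM in at least 1 library and were compared. CCNE2, CDKN2B and CDKN2C did not. In MEIS2-/- cells 4 of the 43 were at least 2-fold lower, namely CDKN1A, CCND3, CDKN2D and CDKN2A, and 2 were at least 2-fold higher, E2F2 and MCM5. These shares, 9.30% and 4.65%, compare with 7.97% of all genes compared that were at least 2-fold lower and 7.84% that were at least 2-fold higher, so the list as a whole was near the background. After rescaling that set the median log2 ratio to 0, 4 were lower and 0 higher. CDKN2A reached 1 FPKM only in WT cells and E2F2 only in MEIS2-/- cells, the library where each was higher. Most members lay close together in both libraries, with 36 of 43 (83.7%) within 1.5-fold, against 67.6% of all genes compared. The 67.6% covers genes of every level from 1 FPKM in either library and was not matched to the members in level. The 6 genes past 2-fold comprised 5 of G1 and 1 of S phase, and 0 of the 12 M genes. The members were also well expressed, as 40 of 46 in WT cells and 38 of 46 in MEIS2-/- cells were above the median gene of the library.

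**Figure D2:**
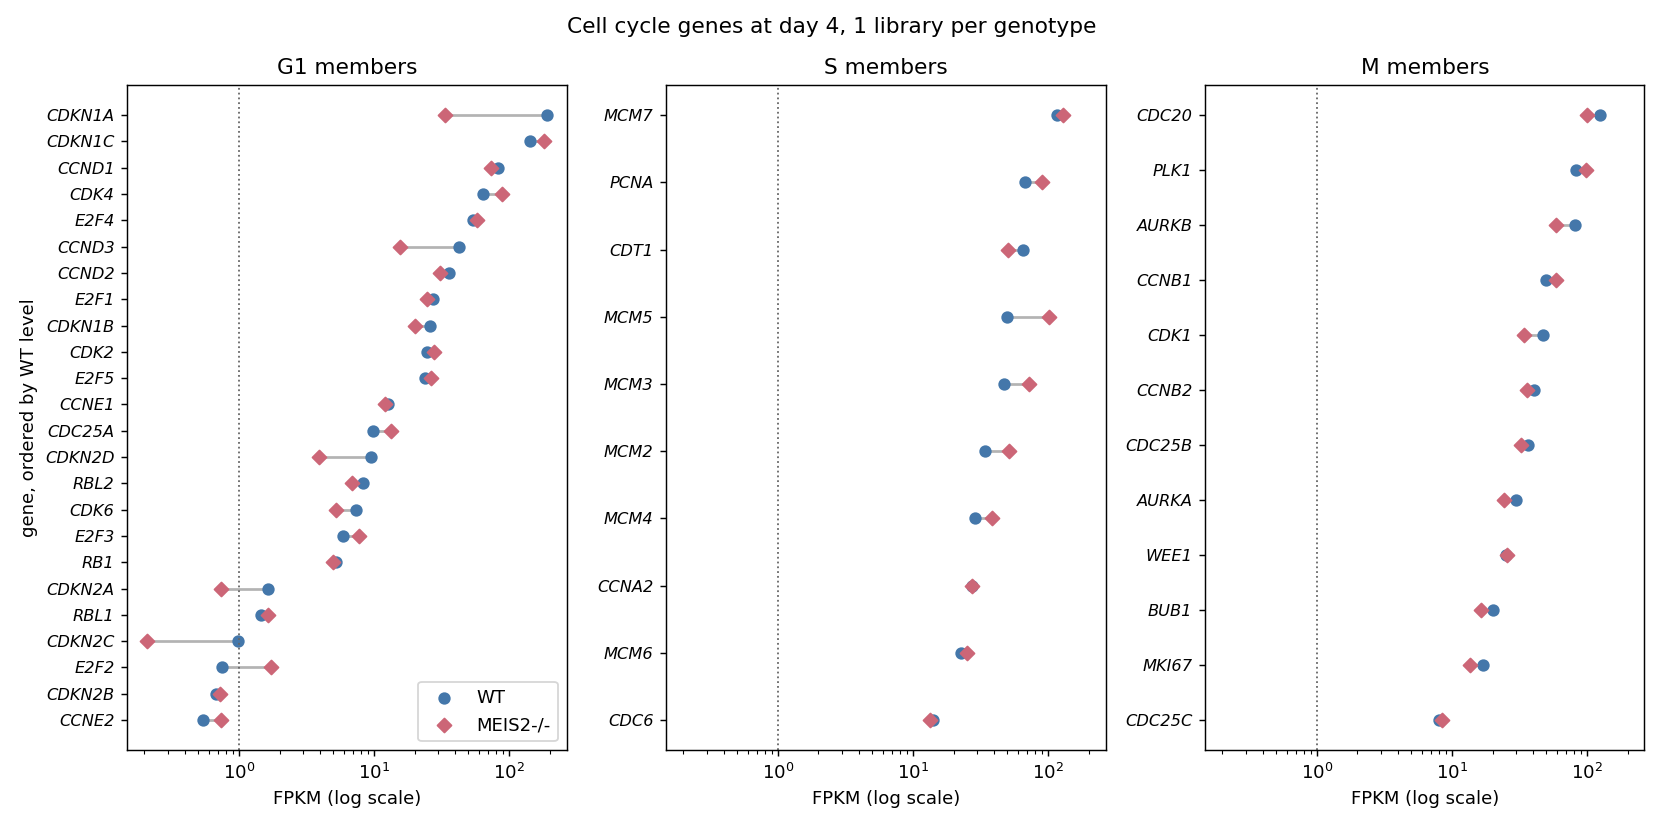
Level of each of the 46 genes in FPKM (horizontal axis, log scale) in the WT library (circles) and the MEIS2-/- library (diamonds), by phase and ordered by WT level. The dotted line marks 1 FPKM. The longest gaps are among the G1 genes, with CDKN1A at 189.67 FPKM and 33.49 FPKM, while in the M panel both libraries lie close for each gene.

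**Figure D3:**
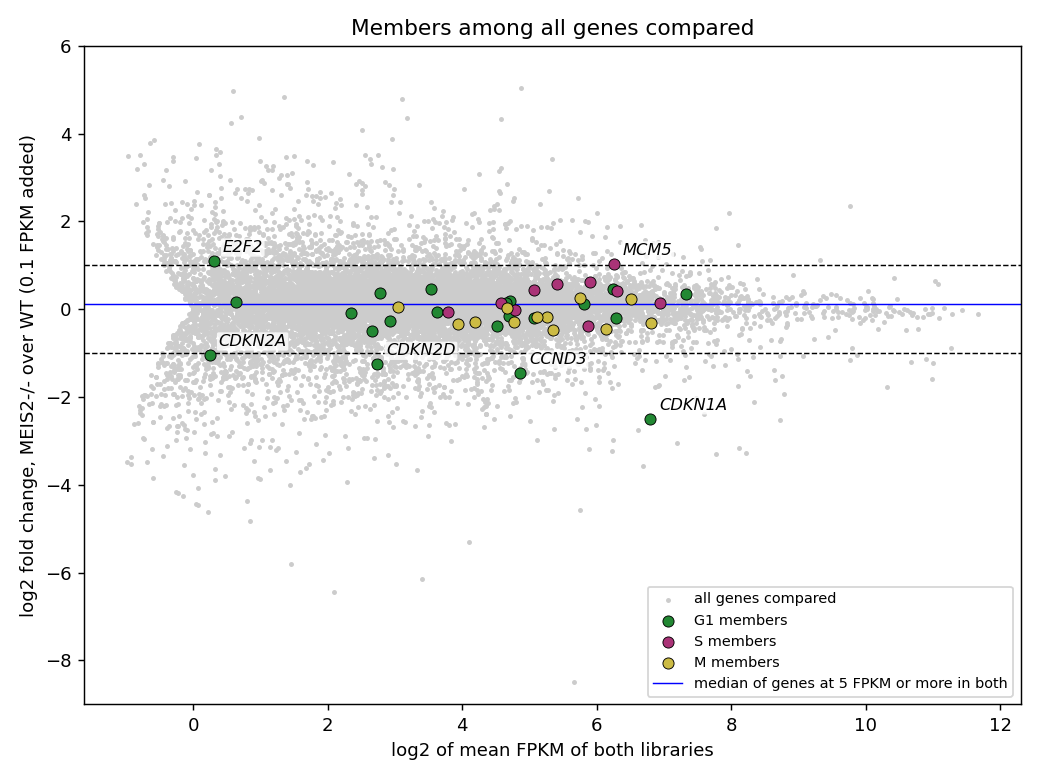
Log2 fold change (vertical axis) against the log2 of the mean FPKM of both libraries (horizontal axis) for all 13075 genes compared (grey) and the 43 members compared (coloured by phase). Dashed lines mark 2-fold, the solid line marks the shift of 0.11, and the 6 members past 2-fold are named.

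The largest difference was in the Cip/Kip inhibitors. CDKN1A, which encodes p21, the inhibitor best known as a target of p53, was at 189.67 FPKM in WT and 33.49 FPKM in MEIS2-/- cells. It was thus 5.65-fold lower, a log2 fold change of -2.50. In WT cells CDKN1A was the highest of the 46 genes and stood at percentile 98.0 of all listed genes, and in MEIS2-/- cells it stood at percentile 85.7. Among the 701 genes at 100 FPKM or more in WT cells, only 14 were lower by more. CDKN1C, which encodes p57, an imprinted inhibitor, was at 141.90 FPKM in WT and 181.29 FPKM in MEIS2-/- cells, with a log2 fold change of 0.35. CDKN1B, which encodes p27, was at 25.95 FPKM and 20.02 FPKM, a log2 fold change of -0.37. The 3 genes therefore did not move together. Because a share within a library does not depend on its scaling, the family was also described by its composition. CDKN1A made up 53.1% of the summed FPKM of the family in WT cells and 14.3% in MEIS2-/- cells, while CDKN1C made up 39.7% and 77.2%. The leading inhibitor was CDKN1A in WT cells and CDKN1C in MEIS2-/- cells, and the sum of the family was 358 FPKM and 235 FPKM.

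The INK4 inhibitors were expressed at far lower levels, with a sum of 12.75 FPKM in WT and 5.58 FPKM in MEIS2-/- cells. CDKN2D, which encodes p19, led the family in both libraries, at 9.45 FPKM in WT and 3.90 FPKM in MEIS2-/- cells, with a log2 fold change of -1.26. CDKN2A was at 1.63 FPKM and 0.74 FPKM, a log2 fold change of -1.04. Its value pools 4 transcripts in the tables, so p16 and the alternative product p14ARF cannot be told apart, and it is uncertain because CDKN2A shares closely similar coding sequence with its neighbour CDKN2B. With 1 FPKM added in place of 0.1 FPKM, its log2 fold change was -0.60, short of 2-fold. CDKN2C, which encodes p18, was at 0.99 FPKM and 0.21 FPKM, and CDKN2B, which encodes p15, at 0.68 FPKM and 0.73 FPKM, both below the level required for comparison. Over both inhibitor families, 5 of 7 genes were compared, of which 3 (60.0%, against 7.97% of all genes compared) were at least 2-fold lower. CDKN2A was counted among these 3 only because it passed the filter through the WT library, where it was higher. The other 2, CDKN1B and CDKN1C, were within 2-fold.

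Among the D-type cyclins, CCND3 stood apart. It was at 42.60 FPKM in WT and 15.49 FPKM in MEIS2-/- cells, 2.74-fold lower, with a log2 fold change of -1.45. CCND1, the leading D-type cyclin in both libraries, was at 83.46 FPKM and 72.85 FPKM, a log2 fold change of -0.20. CCND2 was at 35.89 FPKM and 31.04 FPKM, a log2 fold change of -0.21. All 3 were lower in MEIS2-/- cells, but CCND3 alone passed 2-fold, and its share of the summed D-type cyclins was 26.3% in WT cells and 13.0% in MEIS2-/- cells. It was the second of the 3 in WT cells and the last in MEIS2-/- cells. The kinases that these cyclins activate differed in opposite directions. CDK4 was at 64.15 FPKM in WT and 88.10 FPKM in MEIS2-/- cells, and CDK6 at 7.41 FPKM and 5.22 FPKM. CDK4 therefore exceeded CDK6 by 8.66 times in WT cells and 16.9 times in MEIS2-/- cells, although each gene was within 2-fold, with log2 fold changes of 0.46 and -0.50.

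The later G1 machinery differed little. CCNE1, the main E-type cyclin here, was at 12.64 FPKM in WT and 12.07 FPKM in MEIS2-/- cells, and CCNE2 at 0.54 FPKM and 0.74 FPKM. Their partner CDK2 was at 24.49 FPKM and 28.02 FPKM, and CDC25A, the phosphatase that activates CDK2, at 9.78 FPKM and 13.41 FPKM. The log2 fold changes of CCNE1, CDK2 and CDC25A were -0.07, 0.19 and 0.45, all within 2-fold. The genes of the pocket proteins, which hold E2F factors in check, had low to middle levels. In WT cells RBL1 stood at percentile 32.2 of all listed genes, RB1 at 51.4 and RBL2 at 61.0. RB1 was at 5.24 FPKM in WT and 4.95 FPKM in MEIS2-/- cells, RBL1 at 1.47 FPKM and 1.65 FPKM, and RBL2 at 8.36 FPKM and 6.88 FPKM.

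Of the E2F genes, E2F4, which encodes a factor that acts mainly as a repressor with the pocket proteins, was the highest in both libraries, at 53.90 FPKM in WT and 58.27 FPKM in MEIS2-/- cells. E2F5, of the same repressive type, was at 23.84 FPKM and 26.29 FPKM. Among the activators, E2F1 was at 27.38 FPKM and 24.55 FPKM, E2F3 at 5.95 FPKM and 7.73 FPKM, and E2F2 at 0.75 FPKM and 1.72 FPKM. Only E2F2 passed 2-fold, with a log2 fold change of 1.10, and it held no more than 1.45% of the summed E2F level in either library. Its log2 fold change was 0.64 with 1 FPKM added, and it was also short of 2-fold with either rescaling. The log2 fold changes of E2F1, E2F3, E2F4 and E2F5 were -0.16, 0.37, 0.11 and 0.14, and that of E2F4 turned to below 0 after rescaling that set the median log2 ratio to 0. Over the G1 genes other than inhibitors, 16 were compared, and the median log2 fold change was 0.02, with 1 gene past 2-fold in each direction. Each is 6.25%, against 7.97% lower and 7.84% higher among all genes compared.

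The genes of the replicative helicase were all higher in MEIS2-/- cells, to unequal degrees. MCM5 was at 50.04 FPKM in WT and 102.49 FPKM in MEIS2-/- cells, with a log2 fold change of 1.03. MCM3 was at 47.56 FPKM and 72.69 FPKM, a log2 fold change of 0.61. MCM2 was at 34.44 FPKM and 50.99 FPKM, a log2 fold change of 0.56. These 3 genes differed more than the other subunits. MCM4 was at 28.60 FPKM in WT and 38.69 FPKM in MEIS2-/- cells, with a log2 fold change of 0.43. MCM6 was at 22.54 FPKM and 25.06 FPKM, and MCM7 at 117.29 FPKM and 128.70 FPKM, with log2 fold changes of 0.15 and 0.13. The last 2 lay barely above the shift of 0.11, the median of genes that reached 5 FPKM in each library. MCM5 was past 2-fold by a narrow margin, and after rescaling that set the median log2 ratio to 0 its log2 fold change was 0.92. The 6 proteins form a ring with 1 copy of each, but the transcripts were not equal in level. MCM7, the highest, exceeded MCM6, the lowest, by 5.20 times in WT cells and 5.14 times in MEIS2-/- cells. The share of MCM7 in the summed MCM level was 39.0% and 30.7%, and that of MCM5 was 16.7% and 24.5%.

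The loading factors among the members, CDT1 and CDC6, did not follow the helicase. ORC1 to ORC6, of the pre-replication list described below, all had log2 fold changes above 0, from 0.06 to 0.44. CDT1, which brings the helicase to origins, was at 65.82 FPKM in WT and 50.83 FPKM in MEIS2-/- cells, with a log2 fold change of -0.37. CDC6, its partner in loading, was at 14.08 FPKM and 13.47 FPKM, a log2 fold change of -0.06. PCNA, the sliding clamp of the replication fork, was at 67.17 FPKM and 90.19 FPKM, a log2 fold change of 0.42. CCNA2, the cyclin of S and G2 phase, was at 27.61 FPKM and 27.38 FPKM, a log2 fold change of -0.01. Across the 10 S genes the median log2 fold change was 0.29, and 7 were above the shift of 0.11, as were 50.4% of all genes compared.

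The M genes had the narrowest spread, from -0.48 to 0.25, with a median log2 fold change of -0.23. CDK1, the kinase that starts mitosis, was at 47.40 FPKM in WT and 33.94 FPKM in MEIS2-/- cells, the lowest log2 fold change of the group. Its cyclin partners were at 49.50 FPKM and 58.79 FPKM for CCNB1 and at 40.65 FPKM and 35.78 FPKM for CCNB2. The B-type cyclins thus differed in opposite directions, with log2 fold changes of 0.25 and -0.18. WEE1, the kinase that holds CDK1 inactive, was at 25.04 FPKM and 25.60 FPKM. CDC25B and CDC25C, the phosphatases that release CDK1 from this block, were at 36.68 FPKM and 32.70 FPKM and at 8.07 FPKM and 8.43 FPKM. For these 3 regulators of CDK1 the log2 fold changes were 0.03, -0.17 and 0.06, and those of WEE1 and CDC25C turned to below 0 after rescaling that set the median log2 ratio to 0.

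The mitotic kinases were well expressed in both libraries. PLK1, the Polo kinase, was at 83.53 FPKM in WT and 98.15 FPKM in MEIS2-/- cells, with a log2 fold change of 0.23. AURKA, the Aurora kinase of the spindle poles, was at 30.01 FPKM and 24.40 FPKM, and AURKB, that of the chromosomal passenger complex, at 81.17 FPKM and 59.28 FPKM. The Aurora kinases were lower in MEIS2-/- cells, with log2 fold changes of -0.30 and -0.45, while PLK1 was higher. BUB1, a kinase of the spindle checkpoint, was at 20.07 FPKM and 16.50 FPKM, and CDC20, which activates the anaphase-promoting complex, at 124.31 FPKM and 100.79 FPKM. MKI67, which encodes the proliferation marker Ki67, was at 17.07 FPKM and 13.61 FPKM, a log2 fold change of -0.32. Of the 12 M genes, 8 had a log2 fold change below 0, as did 40.6% of all genes compared. Below the shift of 0.11 lay 10 of them, where 50.4% of all genes compared were above it.

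The S and M groups were compared within each library, which does not depend on scaling. The summed level of the 10 S genes was 0.84 times that of the 12 M genes in WT cells and 1.18 times in MEIS2-/- cells. The median S gene was at 1.06 times the median M gene in WT cells and 1.53 times in MEIS2-/- cells. By percentile among all listed genes, 7 of 10 S genes stood higher in MEIS2-/- cells, as did 53.8% of all genes compared, and 10 of 12 M genes stood lower, as did 46.1%. No gene of the M group and 1 gene of the S group passed 2-fold, so this tilt was made of small differences whose size cannot be set against replicates.

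Other genes of the same pathways were described from lists that hold none of the 46 genes. Of 37 further pre-replication and fork factors, 36 had a log2 fold change above 0, as did 59.3% of all genes compared. Above the shift of 0.11 were 32 of them, as were 50.4% of all genes compared, and the median was 0.35. WDHD1, a fork protein, was at 6.50 FPKM in WT and 14.01 FPKM in MEIS2-/- cells. It passed 2-fold, as did GINS3, a subunit of the replicative helicase complex named here after its values were seen, at 1.70 FPKM and 4.46 FPKM. These 2 genes were 5.41% of the list, against 7.84% of all genes compared that were at least 2-fold higher. RPA3, of the single-strand binding complex, was the 1 lower gene, at 10.15 FPKM and 7.97 FPKM. Of 9 genes of nucleotide supply, 0 passed 2-fold, against 15.8% of all genes compared, and the median was 0.21. The 31 further genes of mitosis and the spindle checkpoint had a median log2 fold change of 0.01. Of these, 19 were below the shift and 12 above it, where 50.4% of all genes compared were above it. None of them passed 2-fold, against 15.8% of all genes compared. A log2 fold change above 0 was seen in 17 of the 31, against 59.3%. CENPE, a kinetochore motor, was at 3.86 FPKM and 7.46 FPKM, and NEK2, a centrosomal kinase, at 16.27 FPKM and 10.34 FPKM. By the median, this longer list thus lay nearer to all genes compared than the 12 M genes did. By summed level it did not. Its sum in MEIS2-/- cells was 90.3% of that in WT cells, against 90.1% for the 12 M genes. For all genes compared it was 98.5%.

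Among 12 regulators of the DREAM and MMB complexes, which repress and activate cell cycle genes through E2F and CHR sites, MYBL2 alone passed 2-fold. This was 8.33% of the list, near the 7.84% of all genes compared that were at least 2-fold higher. MYBL2, which encodes B-MYB, was at 82.32 FPKM in WT and 198.71 FPKM in MEIS2-/- cells, with a log2 fold change of 1.27. TFDP1, the dimer partner of E2F factors, was at 27.92 FPKM and 41.39 FPKM, and FOXM1, which activates mitotic genes, at 27.47 FPKM and 38.56 FPKM. Of the 12, 9 had a log2 fold change above 0, as did 59.3% of all genes compared. The other 3 were below 0, among them LIN37 at 12.08 FPKM and 9.97 FPKM. Of 15 further G1 regulators, MYC alone passed 2-fold. It was lower, which is 6.67% of the list, against 7.97% of all genes compared. MYC was at 54.12 FPKM and 20.22 FPKM and its paralog MYCN at 21.39 FPKM and 37.25 FPKM. The ratio of MYC to MYCN was 2.53 in WT cells and 0.54 in MEIS2-/- cells, so the leading gene of the pair differed between the libraries.

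Since CDKN1A is a p53 target, a list of 19 other p53 targets was examined beside it, of which 18 were compared. In MEIS2-/- cells 3 were at least 2-fold lower, 2 were at least 2-fold higher and 13 were within 2-fold. These shares, 16.7% and 11.1%, stand beside 7.97% and 7.84% of all genes compared. Of the 18, 12 had a log2 fold change below 0, against 40.6% of all genes compared. In all, 14 lay below the shift of 0.11, where 50.4% of all genes compared were above it. The median log2 fold change of the list was -0.51. GADD45A, a growth arrest gene, was at 180.44 FPKM in WT and 52.62 FPKM in MEIS2-/- cells. BBC3, which encodes the apoptosis protein PUMA, was at 62.55 FPKM and 21.17 FPKM, and PLK3 was at 16.75 FPKM and 7.87 FPKM. PHLDA3, an inhibitor of AKT, and TP53I3 went the other way, at 52.99 FPKM and 157.38 FPKM and at 8.86 FPKM and 24.82 FPKM. MDM2, the ubiquitin ligase that p53 induces against itself, was at 6.57 FPKM and 7.03 FPKM. Most of the list thus lay below the shift, as CDKN1A did, with 2 genes at least 2-fold higher. Whether p53 had a part in any of these differences was not tested.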

How the data were processed

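RNA-Seq of 1 WT and 1 MEIS2-/- library was performed by BGI. The authors deposited 1 FPKM value per gene and library, rounded to 2 decimals. The submitters' processing notes name hg19, BWA, Bowtie and RSEM, with no versions or roles, and the tables list RefSeq transcripts. NCBI Gene numbers were matched to RefSeq symbols for 17365 of 17397 genes. The tables hold no read counts. Low values of genes with 1 transcript (810 in WT, 892 in MEIS2-/-) were not multiples of whole reads (agreement 0.086 and 0.14, where 1 is complete), so depth is unknown and no interval is given.

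Log2 fold changes were computed after 0.1 FPKM was added, over genes that reached 1 FPKM in either library, and differences of 2-fold or more were counted. The members and lists were chosen with earlier results of these data known. All 46 members, MEIS2 and, from each other list, genes at 5 FPKM or more with the largest differences (at most 5 per direction) could be named. MDM2, SOX2, CUZD1, USP44, AFP, EMCN, PTPRC, RUNX1, GFI1B, GATA1, SPI1, GINS3, ORC1 to ORC6, KCNQ1 and DMRTA1 were named in addition. The computation was tested on simulated data. Alternatives were pseudocounts of 1 and 0.01 FPKM, no filter or a filter of 5 FPKM, a threshold of 1.5-fold, a median log2 ratio of 0, TMM scaling computed on FPKM, means, another assignment of CCNA2 and CDC25A, percentiles in place of shares, and the 250 bases before the start alone. Python 3.11.15, numpy 2.4.6, pandas 2.3.3 and matplotlib 3.10.9 were used.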

Additional observations from a re-analysis of the deposited data

How the results depend on the processing

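In all, 337 alternative values were computed for 82 results, and 202 kept within 0.1 on the log2 scale, 1.5 times of a count or the direction of a share. Rescaling lowers log2 fold changes by up to 0.115 (median) or 0.104 (TMM), so most rescaled values passed the limit of 0.1 by construction. The count of members at least 2-fold higher was 2, with 1 each in the G1 and S groups. It was 1, with 0 in G1, with a pseudocount of 1 FPKM and with a filter of 5 FPKM, and 0, with 0 in G1 and 0 in S, with either rescaling. With a threshold of 1.5-fold, 2 S genes were higher. The count of lower members ran from 3 to 5 over the settings tried, all of them G1 genes. Rescaling that set the median log2 ratio to 0 gave medians of -0.19 for G1, 0.17 for S and -0.35 for M, and TMM scaling gave -0.18, 0.18 and -0.34. The mean of the G1 genes was -0.23 in place of a median of -0.08. With CCNA2 in the M group and CDC25A in the S group, the S median was 0.43. In all, 4 single members, CDKN2B, E2F4, CDC25C and WEE1, changed sign under rescaling. The share of MCM7 among the MCM genes was lower in MEIS2-/- cells, while its percentile among all genes was higher by 0.37 points, as its own level was. In the 250 bases before the start alone, the E2F strings were in 0 M promoters and the CHR string in 1 G1 promoter. The depth of the libraries is unknown, so the counting error of low genes such as CDKN2A and E2F2 could not be given.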

Other observations

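CDKN1C lies in the imprinted region 11p15, and its neighbours there were examined because the inhibitor was the leading Cip/Kip gene in MEIS2-/- cells. Of 11 listed neighbours, 8 were in the tables and 6 were compared. IGF2, a paternally expressed growth factor, was at 603.05 FPKM in WT and 198.42 FPKM in MEIS2-/- cells, and PHLDA2, a maternally expressed gene like CDKN1C, was at 23.39 FPKM and 10.36 FPKM. Both were at least 2-fold lower, which is 33.3% of the 6 compared, against 7.97% of all genes compared. CD81, TSSC4, KCNQ1 and NAP1L4 had log2 fold changes between 0.29 and 0.38, near the 0.35 of CDKN1C. No explanation was tested.

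Next to CDKN2A and CDKN2B, MTAP, which encodes an enzyme of methionine salvage, was at 5.66 FPKM in WT and 8.49 FPKM in MEIS2-/- cells, and DMRTA1 at 2.07 FPKM and 1.76 FPKM. Both were within 2-fold.

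Of the other marker lists, 7 of 12 hematopoiesis genes were compared and MEIS2-/- cells had 5 of them 2-fold lower or more, with LYL1, a factor related to TAL1, at 29.93 FPKM and 7.81 FPKM. The 5 hematopoiesis genes were 71.4% of those compared. The 5 not compared were below 1 FPKM in both libraries and went both ways. PTPRC, RUNX1 and GFI1B were higher in MEIS2-/- cells, and GATA1 and SPI1 were lower. Of 8 mesoderm genes, 1 (12.5%) was at least 2-fold lower and 2 (25%) at least 2-fold higher. Of 11 endothelium genes compared, 8 (72.7%) were at least 2-fold lower. Among all genes compared, 7.97% were at least 2-fold lower and 7.84% at least 2-fold higher.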
